A study of Mus musculus with 6 samples.

Results

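The 9 genes described here, *Nlrp3*, *Aim2*, *Nlrc4*, *Pycard*, *Casp1*, *Casp4*, *Gsdmd*, *Nek7* and *Txnip*, encode parts of the inflammasome, its pyroptotic output or, for *Nek7* and *Txnip*, proteins described as acting on NLRP3. They were chosen by name and matched by symbol to the NCBI gene number of each expression file. All 9 were found among the 17441 genes listed in at least 1 library, and 8 of them were among the 13120 genes tested. mRNA of mouse heart was sequenced in 6 libraries, 2 from each of 3 groups. WT Sham hearts had surgery without ligation, WT MI hearts had myocardial infarction (MI) after the left anterior descending artery was ligated, and hearts labelled *Card9* KO MI had the same ligation in mice labelled as *Card9* knockouts. All mice were male and 12 weeks old, on the C57BL/6 background, and the tissue below the ligature was taken 3 days after surgery. The knockout is described as carried by the whole animal, the study's WT mice were littermates and C57BL/6 mice, and the 6 libraries include no *Card9* KO sham group. The labels do not state whether a library is 1 heart or a pool, so p-values measure the spread between these libraries, which may be technical.

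The value deposited for each gene is its FPKM, the number of sequenced fragments per kilobase of transcript, scaled to the fragments of its library, so levels can be compared between genes per length. From the spacing of low FPKM values the depth was estimated at 3002000 to 4284000 fragments a library, at which 3 fragments on a 2 kb transcript equal an FPKM of 0.35 to 0.5. *Card9* itself was at 0.99 and 1.03 FPKM in the sham libraries, 3.39 and 5.08 in those of WT MI and 9.85 and 6.94 in those labelled KO. The RNA of the targeted gene was therefore not lower under its knockout label (log2 fold change 0.85, limma adjusted p = 0.112). A whole-gene FPKM does not measure protein, and the paper blotted CARD9 in bone marrow-derived macrophages of WT and *Card9* KO mice. The group is called KO-labelled from here on, since every difference between the infarct groups is one between libraries so labelled. The tissue is a mixture of cells, and its markers moved with the groups. The summed FPKM of 14 macrophage markers was 438 and 375 in the sham libraries, 1483 and 1886 in those of WT MI and 3001 and 2181 in the KO-labelled ones, while 10 cardiomyocyte markers summed to between 51020 and 52780 in WT Sham and between 26110 and 32110 in the infarct libraries. In such tissue, more cells of a type and more RNA per cell cannot be told apart.

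An inflammasome is a cytosolic platform that turns a danger signal into inflammation. A sensor such as NLRP3, AIM2 or NLRC4 recruits the adaptor ASC, encoded by *Pycard*, which assembles caspase-1. Caspase-1 matures the cytokines IL-1β and IL-18 and cleaves gasdermin D, whose released end forms pores in the plasma membrane, the step that defines pyroptosis. Mouse caspase-11, the product of *Casp4*, cleaves gasdermin D after sensing cytosolic lipopolysaccharide. In an infarct these genes are best known from macrophages and other infiltrating leukocytes, although cardiac fibroblasts and cardiomyocytes can also express some of them.

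The genes lie on 7 chromosomes. By a GENCODE annotation of mm9, the build the reads were mapped to, *Casp1* (chr9:5298517-5307265) and *Casp4* (chr9:5308828-5336783) are neighbours on the plus strand with 1562 bp between them, and *Casp12* begins 8692 bp further on. The 250 bases before the annotated start are printed for *Casp1* and *Casp4*, the 2 caspase genes that lie side by side, and for the sensor gene *Nlrp3*. The sequences are RefSeq, build GRCm38.p6, and read 5′ to 3′ along the gene: *Casp1* at chr9:5298267-5298516, 1 of the 2 starts of *Casp4* at chr9:5308599-5308848 and 1 of the 2 starts of *Nlrp3* at chr11:59542436-59542685, all on the plus strand. The RefSeq promoter table held 8 of the 9 genes, without *Gsdmd*. Capitals mark matches, on either strand, to 6 motifs searched.
Casp1: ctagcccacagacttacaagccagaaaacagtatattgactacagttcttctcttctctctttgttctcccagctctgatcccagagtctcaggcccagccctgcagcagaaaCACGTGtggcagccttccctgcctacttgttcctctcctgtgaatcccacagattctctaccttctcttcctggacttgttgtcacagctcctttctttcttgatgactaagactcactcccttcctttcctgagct
Casp4: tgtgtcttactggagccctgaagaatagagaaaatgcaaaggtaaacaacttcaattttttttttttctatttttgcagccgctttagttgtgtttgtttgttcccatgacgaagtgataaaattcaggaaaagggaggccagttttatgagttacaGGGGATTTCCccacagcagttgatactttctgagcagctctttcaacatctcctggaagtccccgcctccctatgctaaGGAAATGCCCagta
Nlrp3: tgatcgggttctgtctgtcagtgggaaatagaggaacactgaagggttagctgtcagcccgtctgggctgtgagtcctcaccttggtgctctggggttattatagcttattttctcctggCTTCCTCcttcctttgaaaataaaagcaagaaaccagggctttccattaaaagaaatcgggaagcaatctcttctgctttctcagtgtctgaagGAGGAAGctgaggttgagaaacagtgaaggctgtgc

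The NF-kB type motif, spelled GGG, any 2 bases, TTTCC, was found in *Casp4* alone of the 8 genes, with matches 93 to 84 and 14 to 5 bases before the start, and in 1.41% of the 32851 promoters of the table. *Casp1* held no such match but 1 E-box, CACGTG, at 137 to 132 bases before its start, a motif present in 6.02% of promoters. The ETS type motif GAGGAAG was matched in *Nlrp3*, at 130 to 124 and 36 to 30 bases before the start, and in *Aim2* and *Pycard*, against 10.6% of all promoters. None of the 8 genes held the interferon response type, spelled GAAA, any 2 bases, GAAA (2.98% of promoters), the STAT type TTCNNNGAA (7.02%) or the AP-1 type TGANTCA (6.75%) in this window. These matches describe the letters of the window and were not tested as binding sites, and *Nlrc4*, *Nek7* and *Txnip* held none of the 6 motifs.

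Infarction was compared first within WT mice, to ask which of these genes changed in infarcted tissue. Of the 8 genes tested, 6 were higher after infarction at an adjusted p below 0.05 and none was lower, whereas of all genes tested 27.7% were called higher and 9.39% lower. The 6 were *Nlrp3*, *Aim2*, *Pycard*, *Casp1*, *Casp4* and *Gsdmd*, and in each of them both WT MI libraries lay above both WT Sham libraries. Such separation upwards was found in 48.3% of all genes tested. *Nek7* and *Txnip* did not pass the test, and both WT MI libraries lay below both WT Sham libraries, as in 22.1% of all genes. The median log2 fold change, on the scale of FPKM + 1, was 0.90 over the 8 genes and 0.19 over all genes tested. *Nlrp3* passed the filter on low values only through its infarct libraries, so it had to differ from the sham to be tested. After upper-quartile scaling of the libraries the median of all genes was 0.00394, and the calls over all genes changed from 3637 higher and 1232 lower to 2603 and 2159. Under that scaling the same comparison called 6 of the 8 genes higher and 2 lower.

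**Figure D1:**
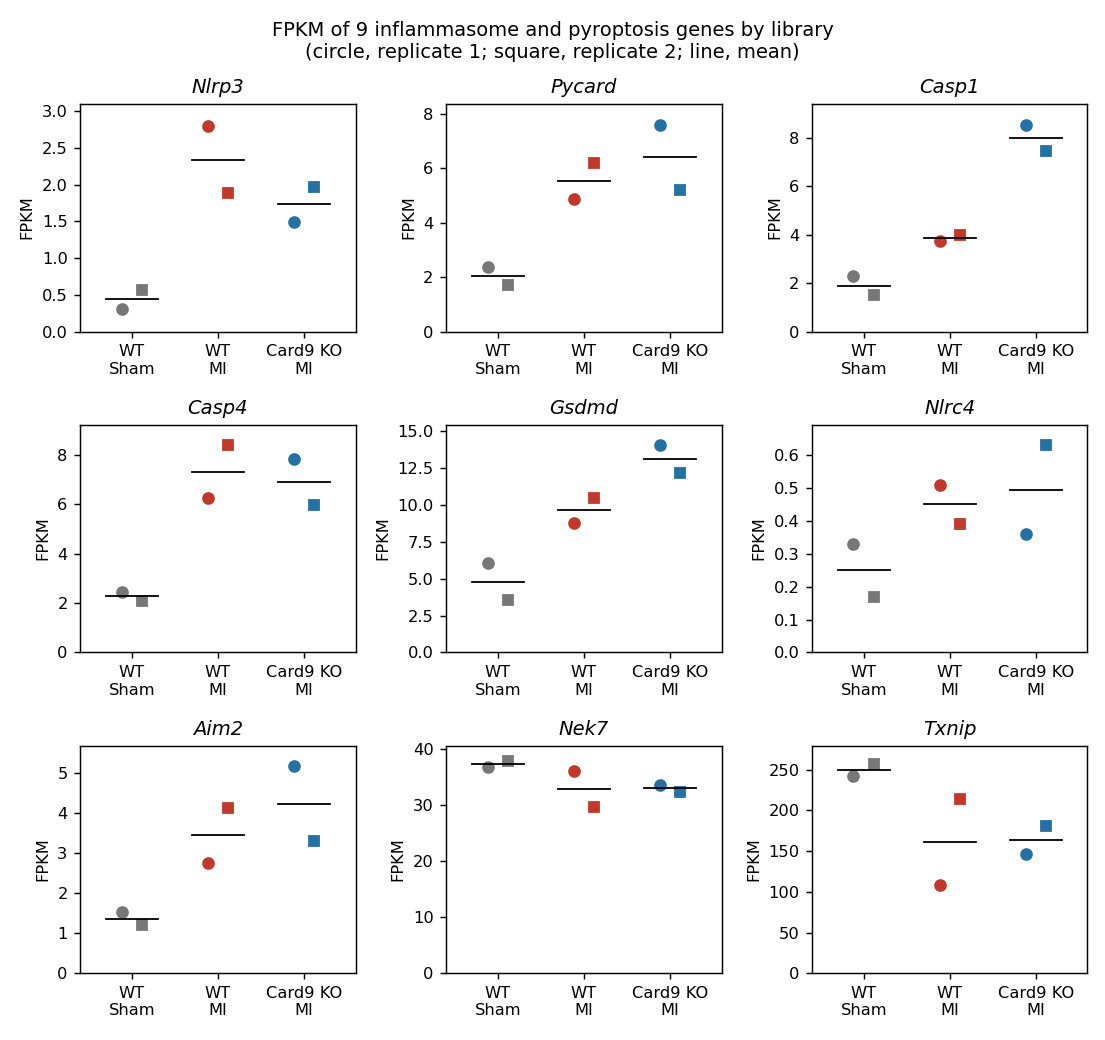
FPKM (vertical axis of each panel, from 0) of the 9 genes in the 2 libraries of each group (WT Sham, WT MI, *Card9* KO MI), with circles for replicate 1, squares for replicate 2 and a line at the mean. The sham libraries are the lowest in *Nlrp3*, *Aim2*, *Pycard*, *Casp1*, *Casp4*, *Gsdmd* and *Nlrc4*, and in *Casp1* and *Gsdmd* both KO-labelled libraries lie above both WT MI libraries.

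*Nlrp3*, the sensor of potassium efflux and other cell stress (gene 216799, chr11:59355070-59380458), was at 0.31 and 0.57 FPKM in the sham libraries, 2.8 and 1.88 in those of WT MI and 1.49 and 1.97 in the KO-labelled ones. It was nearly undetected in the sham heart, at an estimated 3.92 and 6.88 fragments, and each infarct library was above both shams, with 25.7 to 45.4 fragments. These estimates take the longest of its 5 coding transcripts, of 676 to 4021 bp, and would be smaller for a shorter one. The mean rose 5.32-fold from 0.44 ± 0.184 to 2.34 ± 0.65 FPKM (SD, n = 2) between WT Sham and WT MI (log2 fold change 1.21, SE 0.24, limma adjusted p = 0.00694). Without WT MI replicate 1 the log2 fold change was 1.01 and the adjusted p was 0.0549. Because so low a gene is compressed by the added FPKM of 1, the log2 fold change was 2.19 when 0.1 was added and 0.43 when 5 was added.

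*Aim2*, the sensor of cytosolic double-stranded DNA (gene 383619, chr1:175281010-175396171), was at 1.53 and 1.2 FPKM in the sham libraries, 2.76 and 4.13 in those of WT MI and 5.16 and 3.3 in the KO-labelled ones. Its libraries varied more within the infarct groups than within the sham, and the 2 infarct groups overlapped. From WT Sham to WT MI it rose 2.52-fold (log2 fold change 0.90, SE 0.25, limma adjusted p = 0.0256), but the call was lost without WT Sham replicate 1 (adjusted p = 0.0559), WT Sham replicate 2 (0.109) or WT MI replicate 2 (0.15), under quantile normalization (0.111) and with no filter on low values (0.0569). *Nlrc4* (gene 268973, chr17:74825635-74858448), whose product assembles an inflammasome when NAIP proteins bind bacterial flagellin or secretion needle proteins, had the lowest mean of the 9 per length. It was at 0.33 and 0.17 FPKM in the sham libraries, 0.51 and 0.39 in those of WT MI and 0.36 and 0.63 in the KO-labelled ones, or an estimated 1.96 to 9.97 fragments a library. It did not pass the filter on low values, and a difference was not detectable at this depth (0.22 on the log2 scale from WT Sham to WT MI, adjusted p = 0.348, when no filter was applied).

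*Pycard*, whose product ASC links the sensors to caspase-1 (gene 66824, chr7:135135617-135137381), was at 2.37 and 1.7 FPKM in the sham libraries, 4.86 and 6.19 in those of WT MI and 7.61 and 5.21 in the KO-labelled ones. Both infarct groups were above the sham, and they overlapped each other. The rise from WT Sham to WT MI was 2.71-fold (log2 fold change 1.11, SE 0.22, limma adjusted p = 0.00709), and without WT MI replicate 2 it was 0.96 on the log2 scale with an adjusted p of 0.0544. Over the 6 libraries *Pycard* ran closely with *Aim2* (Pearson r = 0.99 of log2(FPKM + 1)), *Casp4* (0.98) and *Gsdmd* (0.963), as a description of libraries that share their groups.

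The 2 inflammatory caspase genes rose together with infarction. *Casp1* (gene 12362) was at 2.28 and 1.52 FPKM in the sham libraries, 3.73 and 4.0 in those of WT MI and 8.54 and 7.46 in the KO-labelled ones, 3 levels with no overlap between any of the groups. *Casp4* (gene 12363) was at 2.45 and 2.09 FPKM in the sham libraries, 6.26 and 8.4 in those of WT MI and 7.84 and 5.96 in the KO-labelled ones, so that the infarct groups overlapped and both lay above the sham. From WT Sham to WT MI, *Casp4* rose 3.23-fold (log2 fold change 1.34, SE 0.20, limma adjusted p = 0.00181) and *Casp1* rose 2.03-fold (0.76, SE 0.19, adjusted p = 0.0166). *Casp4* was the member with the lowest adjusted p in this comparison. The *Casp1* call was lost without WT Sham replicate 2 (adjusted p = 0.0788), WT MI replicate 1 (0.0669) or WT MI replicate 2 (0.0835), and under quantile normalization (0.116).

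*Gsdmd*, which encodes the pore protein cut by both caspases (gene 69146, chr15:75692769-75697834), was at 6.07 and 3.54 FPKM in the sham libraries, 8.79 and 10.48 in those of WT MI and 14.03 and 12.16 in the KO-labelled ones. The 3 groups did not overlap, and the KO-labelled libraries were the highest. From WT Sham to WT MI it rose by 0.90 on the log2 scale (SE 0.22, limma adjusted p = 0.0151). The mean was 2.73-fold above WT Sham in the KO-labelled libraries (1.31, adjusted p = 0.00203). The call in WT mice was lost without WT Sham replicate 2 (log2 fold change 0.58, adjusted p = 0.06), without WT MI replicate 2 (0.0938) and under quantile normalization (0.059). With 5 added in place of 1, the log2 fold changes of *Casp1* (0.36), *Aim2* (0.40), *Pycard* (0.58), *Gsdmd* (0.59) and *Casp4* (0.76) were smaller, and each was still called.

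The other two genes act on NLRP3 itself and were far more abundant per length in the sham heart than the genes above. *Nek7* encodes a kinase that binds NLRP3 and is needed for its assembly (gene 59125, chr1:140381291-140516273). It was at 36.87 and 37.96 FPKM in the sham libraries, 36.09 and 29.7 in those of WT MI and 33.65 and 32.46 in the KO-labelled ones, a narrow range. Its log2 fold change of -0.19 from WT Sham to WT MI (SE 0.12) did not pass the test (limma adjusted p = 0.252), but it did after upper-quartile scaling (-0.40, adjusted p = 0.0325) and quantile normalization (-0.37, 0.0448).

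*Txnip* encodes the thioredoxin-binding protein that has been described as an NLRP3 ligand and also restrains glucose uptake (gene 56338, chr3:96361880-96365806). It was at 242.8 and 256.51 FPKM in the sham libraries, 108.88 and 214.6 in those of WT MI and 146.96 and 181.23 in the KO-labelled ones, the highest level per length of the 9 genes in every library. The 2 WT MI libraries lay on either side of both KO-labelled libraries. WT MI was at 0.648 of the WT Sham mean, a log2 fold change of -0.70 (SE 0.27) that did not pass the test (limma adjusted p = 0.0793). Leaving out WT MI replicate 2 gave -1.19 (adjusted p = 0.00478), leaving out replicate 1 gave -0.22, and it was called after upper-quartile scaling (-0.92, adjusted p = 0.0344). The exons of *Txnip* share 606 bases with the noncoding gene *Gm15441* on the opposite strand, the gene most like it over the 6 libraries (r = 0.998). Whether the authors counted by strand is not given in the sources used here, and without strand the reads on the shared bases cannot be told apart. No other member had exons shared with an annotated gene.

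The second comparison set the KO-labelled infarct libraries against those of WT MI. None of the 8 genes was called at an adjusted p below 0.05 by limma, where 1.4% of all genes tested were called (0.816% higher and 0.587% lower), and 1 of the 8, *Casp1*, had an unadjusted p below 0.05, where 20.0% of all genes did. With 5 added to the FPKM, 1 of the 8 was called, again *Casp1*, where 312 of all 13120 genes were. The median log2 fold change was 0.13 over the 8 genes and 0.04 over all genes tested. In *Casp1* and *Gsdmd* both KO-labelled libraries lay above both WT MI libraries, as in 30.8% of all genes, and in the other 6 the groups overlapped.

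*Casp1* was 2.07-fold higher in the KO-labelled libraries, at 8.0 ± 0.764 FPKM against 3.87 ± 0.191 in WT MI (SD, n = 2). Its log2 fold change was 0.89 (SE 0.19, 95% interval 0.44 to 1.33), with an adjusted p of 0.0698 by limma that ranged from 0.0433, with 5 added, to 0.311 over the alternatives. *Gsdmd* was at 1.36 times the WT MI mean (log2 fold change 0.41, 95% interval -0.10 to 0.92, adjusted p = 0.352). *Casp4*, the neighbour of *Casp1*, had a log2 fold change of -0.07 with an interval of -0.54 to 0.39, which in FPKM + 1 is 0.688 to 1.31 times the WT MI level. Whether *Casp1* and *Casp4* differed from each other in this comparison was not tested.

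For the sensors and the adaptor the intervals reached from lower to higher. *Nlrp3* was at -0.28 on the log2 scale (interval -0.85 to 0.28, adjusted p = 0.569 by limma), *Aim2* at 0.23 (-0.35 to 0.81, 0.662) and *Pycard* at 0.17 (-0.35 to 0.69, 0.722). *Nek7* had the narrowest interval of the 8 genes, from -0.26 to 0.29 around 0.01, and *Txnip* one from -0.54 to 0.73 around 0.09. On the scale of FPKM + 1, which understates changes of low genes, ratios of up to 1.75 for *Aim2* and 1.62 for *Pycard* lay within the intervals. The directions of *Pycard*, *Aim2*, *Casp4*, *Nek7* and *Txnip* turned when single libraries were left out.

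**Figure D2:**
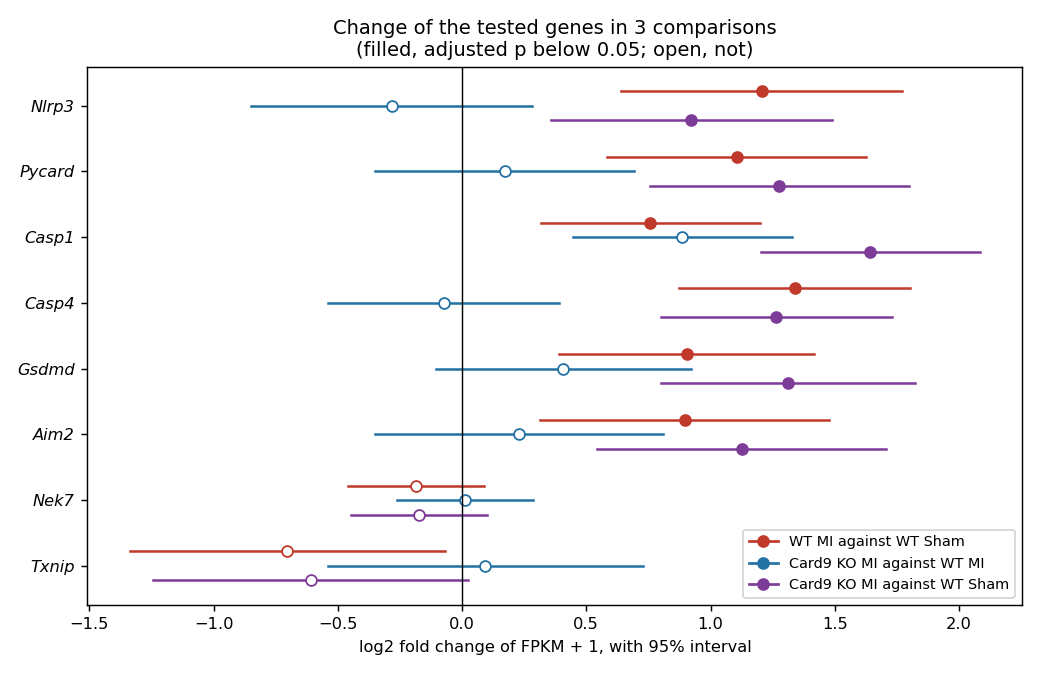
log2 fold change of FPKM + 1 (horizontal axis) with its 95% interval for the 8 genes tested in the 3 comparisons, filled where the adjusted p was below 0.05 and open where it was not. The 6 genes from *Nlrp3* to *Aim2* are filled in both comparisons with WT Sham, and no gene is filled between the KO-labelled libraries and WT MI, where *Casp1* alone has an interval above 0.

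The KO-labelled libraries were also set against WT Sham, a comparison in which genotype and infarction cannot be told apart and which shares its sham libraries with the first and its infarct libraries with the second. The genes called higher numbered 6 of 8, and none was called lower, against 34.8% and 14.3% of all genes tested. They were the 6 called in WT mice, and in all 6 the groups did not overlap, as upwards in 51.6% of all genes. *Nek7* and *Txnip* lay below both sham libraries, as did 24.5% of all genes. *Casp1* stood 4.21-fold above WT Sham (log2 fold change 1.64, limma adjusted p = 0.000329), *Pycard* 3.15-fold (1.28, 0.00249) and *Casp4* 3.04-fold (1.26, 0.00151). The values for *Aim2* were 3.1-fold (1.13, adjusted p = 0.00738) and for *Nlrp3* 3.93-fold (0.92, 0.0157). *Nlrp3* lost its call under quantile normalization (adjusted p = 0.094) or without WT Sham replicate 1 (0.0722) or KO-labelled replicate 2 (0.0802), and *Aim2* lost its call without KO-labelled replicate 1 (0.0573). Neither *Txnip* (-0.61, adjusted p = 0.0995) nor *Nek7* (-0.17, 0.256) passed the test. Upper-quartile scaling called both of them lower (*Txnip* -0.86, adjusted p = 0.0343, and *Nek7* -0.42, 0.0201) and changed the calls over all genes from 4569 higher and 1875 lower to 3230 and 2884.

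Because the macrophage markers rose in the same libraries, each gene was also expressed per 1000 FPKM of the 14 summed macrophage markers, as a description. Of these markers 13 were called higher in WT MI over WT Sham, against 27.7% of all genes. None was called between the infarct groups, against 1.4% of all genes, and the summed level was 1.54-fold higher in the KO-labelled libraries. Between the infarct groups 13 had a log2 fold change above 0 and 1 below, *Cd163*, at a mean of 3.235 FPKM against 7.965 in WT MI. The sum is weighted to abundant genes, with *Lyz2* at 723.8 of the 1685 FPKM in WT MI. Per 1000, *Casp4* was at 5.59 and 5.57 in the sham libraries, 4.22 and 4.45 in those of WT MI and 2.61 and 2.73 in the KO-labelled ones, so it stood lower in each infarct group than in the sham. *Pycard* took the same order, at 5.41 and 4.53, then 3.28 and 3.28, then 2.54 and 2.39. *Casp1* differed, being lowest in WT MI at 2.51 and 2.12, with 2.85 and 3.42 in the KO-labelled libraries and 5.2 and 4.05 in WT Sham. For *Nlrp3* the ratio overlapped between WT Sham (0.707 and 1.52) and WT MI (1.89 and 0.997), and was 0.497 and 0.903 in the KO-labelled libraries. *Il1b*, the gene of the caspase-1 substrate IL-1β, went the other way, from 2.19 and 2.66 in WT Sham to 5.83 and 5.02 in WT MI. It was at 4.53 and 4.22 in the KO-labelled libraries. The sum of 12 neutrophil markers was 7.64 and 5.4 FPKM in the sham libraries, 212 and 93.2 in those of WT MI and 59.93 and 46.73 in the KO-labelled ones, with *Ly6g*, *Elane* and *Camp* listed in no library. None of the 6 neutrophil markers tested was called between the infarct groups, against 1.4% of all genes. WT MI replicate 1, with the larger neutrophil sum, also held the highest *Nlrp3* and the lowest *Txnip* of the 6 libraries. In WT Sham and in the KO-labelled group replicate 1 also had the larger neutrophil sum, but the lower *Nlrp3*. There *Nlrp3* was at 0.31 against 0.57 FPKM in WT Sham and at 1.49 against 1.97 in the KO-labelled libraries. *Txnip* was again lower in replicate 1 of both groups. The sum of 8 fibroblast markers was 512 and 489 in the sham libraries, 1479 and 2003 in those of WT MI and 3188 and 3059 in the KO-labelled ones. Between the infarct groups 3 of the 8 were called higher, *Col1a1*, *Col1a2* and *Postn*, against 0.816% of all genes. Another 2 had a log2 fold change below 0. Those 2 were *Pdgfra*, at a mean of 10.54 FPKM against 15.54 in WT MI, and *Dcn*, at 303.5 against 341.2, and neither was called. Sums of 7 endothelial markers (344.5 to 421.9) and 8 lymphocyte markers (4.5 to 8.06) ranged less. The part of these cell types in the changes of the 9 genes was not tested.

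**Figure D3:**
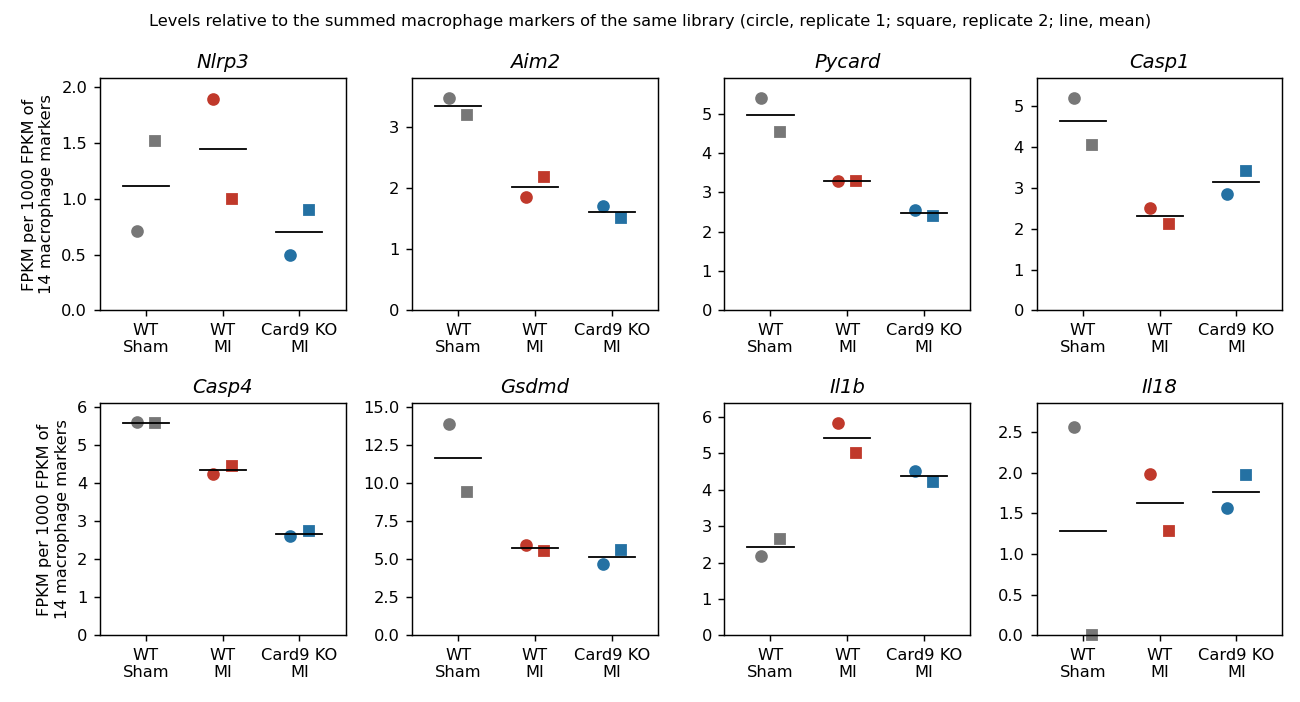
FPKM per 1000 FPKM of 14 summed macrophage markers of the same library (vertical axis of each panel, from 0) for 6 of the genes and for *Il1b* and *Il18*, with circles for replicate 1, squares for replicate 2 and a line at the mean. *Casp4* and *Pycard* are highest in WT Sham and lowest in the KO-labelled group (axis label *Card9* KO MI), while *Il1b* is higher in every infarct library than in both sham libraries, and *Il18* is listed at 0 in WT Sham replicate 2.

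Around these members, 44 further genes in 7 groups complete the pathway, of which 38 were tested. From WT Sham to WT MI 23 of the 38 were called higher, 3 lower and 12 did not pass the test, where 27.7% of all genes were called higher and 9.39% lower. Between the infarct groups 1 of the 38 was called, a share near the 1.4% of all genes. Of the 38, 11 had fewer than 2 sham libraries at an FPKM of 1 and so were tested only because infarct libraries were high. The median log2 fold change of the 38 from WT Sham to WT MI was 0.86, against the 0.19 of all genes tested. These lists, like the 9 genes, were assembled with earlier results of these data known.

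Among the other sensors 4 of 6 tested were called higher in WT MI (27.7% of all genes), but 5 of the 6, all but *Naip5*, were tested only because infarct libraries were high. *Naip2* and *Naip5*, whose products hold bacterial ligands for NLRC4, changed by 1.01 (limma adjusted p = 0.00535) and 0.77 (0.016) on the log2 scale, although the near-identical *Naip* copies can share reads. The call of *Naip5* was lost without WT Sham replicate 1 (adjusted p = 0.0714), WT MI replicate 1 (0.0827) or WT MI replicate 2 (0.0629), and under quantile normalization (0.132). Both substrate cytokine genes tested were called higher, and each had only 1 sham library at an FPKM of 1, so both were tested because their infarct libraries were high. *Il1b* was at 0.96 and 1.0 FPKM in the sham libraries, 8.65 and 9.47 in those of WT MI and 13.6 and 9.2 in the KO-labelled ones, a log2 fold change of 2.34 with infarction in WT mice (adjusted p = 0.000155) and of 0.28 between the infarct groups (0.482). *Il18* was at 1.12 and 0 FPKM in the sham libraries, 2.93 and 2.41 in those of WT MI and 4.67 and 4.3 in the KO-labelled ones (1.33, adjusted p = 0.0175, and 0.58, 0.385). The call of *Il18* was lost when WT MI replicate 1 (adjusted p = 0.0989) or replicate 2 (0.0617) was removed, with 0.1 added (0.0513) and under quantile normalization (0.0592). *Il1a*, an alarmin that needs no caspase-1, was below the filter.

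Of the genes for other pores and for membrane rupture, *Ninj1* rose and *Gsdme* did not pass the test. *Ninj1*, whose product tears the plasma membrane at the end of lytic death, was at 44.21 and 35.18 FPKM in the sham libraries, 83.55 and 62.45 in those of WT MI and 58.93 and 50.76 in the KO-labelled ones. Its log2 fold change was 0.86 in WT MI (limma adjusted p = 0.00627) and -0.40 between the infarct groups (0.247). *Gsdme*, a gasdermin cut by caspase-3, was low, with a log2 difference of 0.63 (adjusted p = 0.0864).

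Upstream of the sensors 1 of 7 genes was called higher in WT MI (27.7% of all genes), and 5 of 7 in the KO-labelled libraries against WT Sham (34.8% of all genes). *Gbp2*, an interferon-induced GTPase that exposes bacterial lipopolysaccharide to caspase-11, was at 9.44 and 10.51 FPKM in the sham libraries, 9.58 and 9.44 in those of WT MI and 13.31 and 21.58 in the KO-labelled ones. It passed the test neither with infarction in WT mice (log2 fold change -0.06, limma adjusted p = 0.844) nor between the infarct groups (0.77, 0.109). Its call in the KO-labelled libraries against WT Sham (0.71, adjusted p = 0.0234) was lost under each of 3 other scalings (quantile 0.145, upper-quartile 0.102, and 0.0671 leaving out the 100 most abundant genes), with no filter (0.0529), and when WT Sham replicate 1 (0.0985), WT Sham replicate 2 (0.0586) or KO-labelled replicate 2 (0.106) was removed. *Gbp* copies can share reads. *Brcc3*, which encodes a deubiquitinase of NLRP3, did not pass the test in WT MI (-0.31, adjusted p = 0.211).

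The group of cytokine and caspase brakes held the one gene called between the infarct groups. *Serpinb1a*, which encodes an inhibitor of neutrophil serine proteases that has also been described to restrain inflammatory caspases, was at 1.45 and 1.03 FPKM in the sham libraries, 16.63 and 13.12 in those of WT MI and 45.93 and 47.23 in the KO-labelled ones. These are 3 separate levels with little spread within each. It was 3.13-fold higher in the KO-labelled libraries than after infarction in WT mice (log2 fold change 1.59, SE 0.16, limma adjusted p = 0.00946). The fold stayed between 1.43 and 1.75 on the log2 scale when either infarct group lost a library, with an adjusted p of 0.0585 and 0.0655 when WT MI replicate 1 or 2 was removed, 0.0708 and 0.0584 for the KO-labelled replicates 1 and 2, and 0.0575 with no filter on low values. *Il18bp*, the decoy that binds IL-18, did not pass the test in WT MI (0.42, adjusted p = 0.0796).

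Of the apoptosis and necroptosis partners 7 of 8 were called higher in WT MI, against 27.7% of all genes. Among those 7, 1 was tested only because infarct libraries were high. *Zbp1*, the nucleic acid sensor that can start pyroptosis, apoptosis and necroptosis, was at 2.92 and 1.74 FPKM in the sham libraries, 7.36 and 14.84 in those of WT MI and 18.63 and 40.25 in the KO-labelled ones. It rose by 1.81 on the log2 scale in WT MI (limma adjusted p = 0.0105), and its log2 fold change of 1.31 between the infarct groups did not pass the test (0.14). The rise in WT MI lost its call without WT Sham replicate 2 (adjusted p = 0.0653) or WT MI replicate 2 (0.0721). *Fadd*, the adaptor of the death receptors, was the 1 of 8 that was not called in WT MI (0.21, adjusted p = 0.267).

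Partners and relatives of *Txnip* were split in WT MI, with 4 of 8 called higher (27.7% of all genes) and 3 lower (9.39%). *Txn1*, the cytosolic thioredoxin that TXNIP binds, was at 27.85 and 34.48 FPKM in the sham libraries, 71.31 and 61.28 in those of WT MI and 76.22 and 64.41 in the KO-labelled ones, a log2 fold change of 1.07 in WT MI (limma adjusted p = 0.00107). The mitochondrial thioredoxin gene *Txn2* fell by 0.38 on the log2 scale (adjusted p = 0.0136), a call lost without WT Sham replicate 1 (0.0711), WT MI replicate 1 (0.0789) or WT MI replicate 2 (0.0735), or with no variance trend in the fit (0.0553). The other two that fell were *Mlxip* and *Mlxipl*, which encode glucose-responsive factors known to drive *Txnip* transcription, and both are named here after their values were seen. *Mlxip* changed by -0.56 on the log2 scale (adjusted p = 0.0103) and *Mlxipl* by -0.89 (0.00512). The call of *Mlxip* was lost without WT Sham replicate 2 (-0.51) or WT MI replicate 2 (-0.53). *Mlxipl* was lower again in the KO-labelled libraries, at 7.09 FPKM against 11.86 in WT MI (-0.65, adjusted p = 0.103). *Mlxip* (10.6 against 9.895) and *Txnip* (164.1 against 161.7) were not lower there. *Arrdc4*, the 1 of 8 not called in WT MI, was at 5.46 FPKM against 4.895 in WT Sham. The part of *Mlxip* and *Mlxipl* in the *Txnip* level was not tested.

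**Figure D4:**
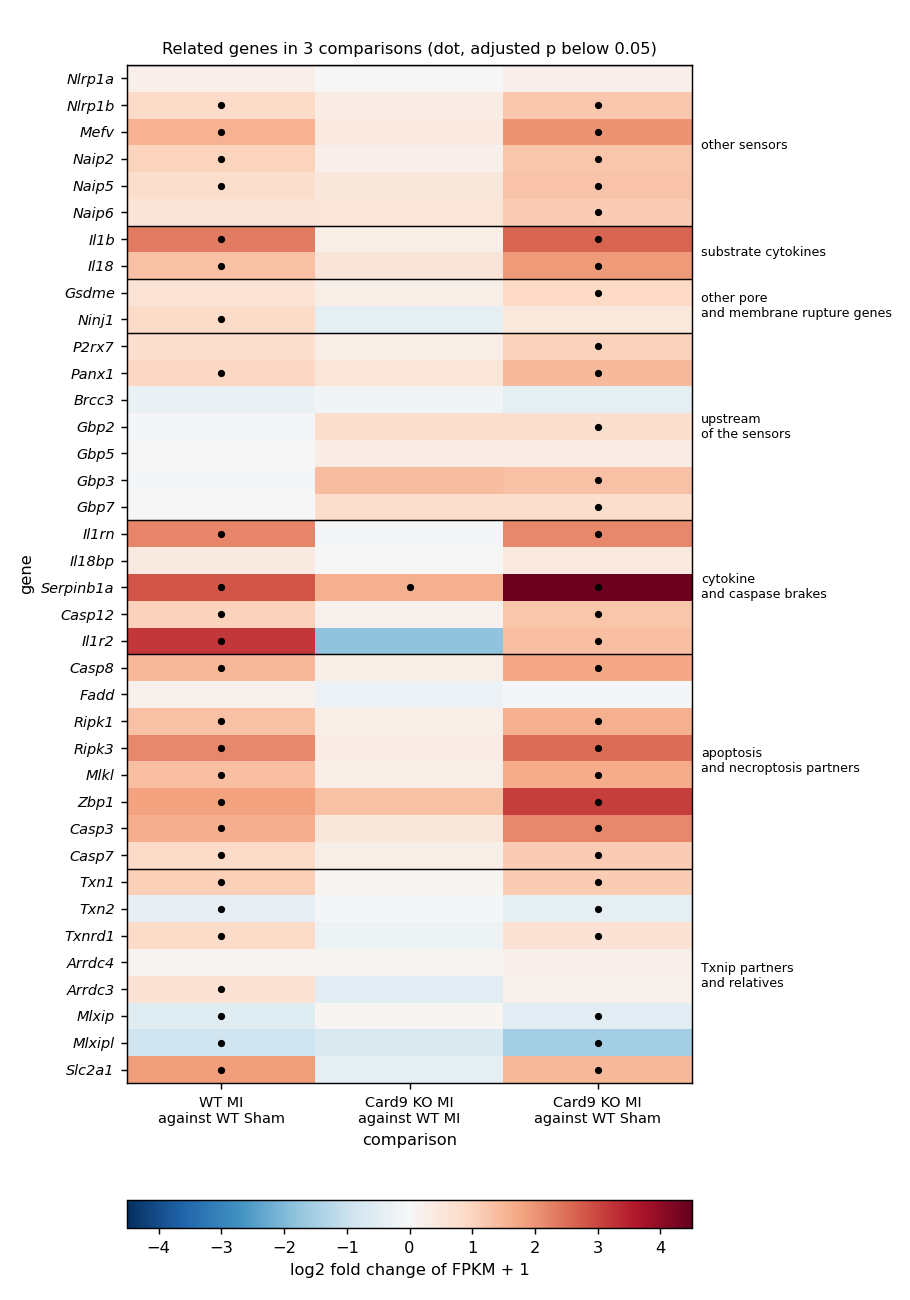
log2 fold change of FPKM + 1 (colour, red higher and blue lower in the group named first) of the 38 related genes tested, in 3 comparisons (columns), grouped by role (right), with a dot where the adjusted p was below 0.05. Dots fill much of both columns against WT Sham, and the column of the KO-labelled libraries (*Card9* KO MI) against WT MI holds 1, at *Serpinb1a*.

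The genes most like each member were found by the Pearson correlation of log2(FPKM + 1) over the 6 libraries, a description in which every gene shares the same groups and libraries. Many genes followed the 6 members that rose, with 1417 at r of at least 0.95 for *Pycard*, 1163 for *Casp4*, 884 for *Gsdmd*, 722 for *Aim2*, 677 for *Casp1* and 215 for *Nlrp3*. *Nek7* and *Txnip* had 11 and 13 such genes. Nearest to *Casp4* were *Nop58*, *Il1r1* and *Pde3b*, all at 0.998, and nearest to *Casp1* were *Prnd*, *Marcks* and *Rbl1*, also at 0.998. *Nlrp3* was most like *Nolc1* (0.998), *Slc2a1* (0.997) and *Socs5* (0.996), *Aim2* was most like *Samd11* (0.999), *Pdxk* (0.997) and *Phip* (0.995), and *Pycard* was most like *Hdgfl3* (0.998), *Gse1* and *Ccn5* (both 0.997). *Gsdmd* ran with *Trmt10a* (1.00), *Tnfrsf11a* and *Elf4* (both 0.997). For *Nek7* the nearest genes were *4930414N06Rik* (0.988), *Frg2f1* (0.987) and *Ralgps1* (0.967), and for *Txnip*, after *Gm15441*, they were *Spon2* (0.985) and *Mrpl58* (0.984).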

How the data were processed

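RNA-seq of male mouse heart, 2 libraries a group, was used. Per the labels and the study's methods, RNA was isolated by the authors in TRIzol, polyadenylated RNA was captured on oligo(dT) beads, and TruSeq libraries were made and sequenced on an Illumina HiSeq. BWA, Bowtie2 and mm9 are named in the submitters' processing notes. The deposited values are FPKM per NCBI gene number, to 2 decimals, for genes above 0. The counting tool, its annotation and its use of strand are not given in the sources used here. FPKM are shares of a library, so the values of different genes in it are not independent.

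A gene not listed in a library was set to 0. Symbols were found for 17390 of 17441 gene numbers in a GRCm38.p6 table used for names only. Genes reaching an FPKM of 1 in 2 or more libraries (13120) were fitted as log2(FPKM + 1) with limma 3.58.1 (R 4.3.3; lmFit, and eBayes with trend) over all 3 groups, with p-values adjusted by Benjamini-Hochberg over all genes tested and calls at 0.05. The study screened genes by fold change and a NOIseq probability. limma was used here because it gives an error and an adjusted p per gene. Depth was estimated from the spacing of low FPKM values, of which 66.1 to 69.8% came out whole within 0.1 fragments, too few for a count test. Intervals cover the spread between libraries only.

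The members and lists were chosen with earlier results of these data known. Named genes were the members, *Card9*, the 2 most abundant genes of each related list, any called between the infarct groups, and the 3 genes most correlated with each member. *Gm15441*, *Mlxip*, *Mlxipl*, *Arrdc4*, *Gbp3* and *Il1r2* were added after values were seen, as were the single marker genes whose levels are given. 16 alternatives were run, covering the added FPKM, the filter, the scaling, the fit, the replicate block and each library left out.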

Additional observations from a re-analysis of the deposited data

How the results depend on the processing

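Over the 8 members tested and 3 comparisons, 327 of 372 values kept their direction and their side of the threshold, 18 lost the call, 17 gained one and 10 changed sign. *Casp4* kept its call from WT Sham to WT MI in every alternative run. Of the members, 2 were called in WT MI against WT Sham, and 2 in the KO-labelled libraries against WT Sham, at a mean FPKM of at least 5, which leaves 4 tested. Of all 8786 genes tested under that filter, 4058 were called in the first comparison and 5035 in the second. Leaving out single libraries gave 3 to 6 in the first and 5 to 7 in the second. Between the infarct groups 1 was called with 5 added and 0 in the other alternatives run.

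Over all genes, 184 were called between the infarct groups, 80 with 0.1 added, 312 with 5 added, 12 with no filter, 284 at a mean FPKM of at least 5, 101 with only the 2 groups, 58 without the trend, and 8 to 96 with single libraries left out. For WT MI against WT Sham, leaving out libraries gave 2883 to 4675. Quantile normalization called 2288 higher and 2416 lower there, and scaling without the 100 most abundant genes 2869 and 1830. For the KO-labelled libraries against WT Sham these were 2841 and 3409, and 3642 and 2527. Same-numbered libraries did not deviate together over all genes tested (r of 0.00244, -0.00828 and 0.0204). With 2 libraries a group, these r values cannot show whether the numbers pair the libraries for some of the genes. With the replicate block 71 of 13120 genes were called between the infarct groups, 4651 in WT MI against WT Sham and 6241 in the KO-labelled libraries against WT Sham. Of the 8 members 0, 7 and 7 were called in the same order. Members had 6 higher and 1 lower, *Txnip*, against WT Sham.

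Signs changed as follows, none in a called value, and the cause was not tested. Between the infarct groups *Nek7* was at -0.0238 under upper-quartile scaling and -0.0073 without the 100 most abundant genes, and *Il18bp* was at -0.0168, -0.0345 under quantile normalization and -0.0008. With libraries left out the values between the infarct groups ran from -0.12 to 0.15 for *Nek7*, -0.17 to 0.21 for *Il18bp*, -0.0639 to 0.41 for *Pycard*, -0.0305 to 0.49 for *Aim2*, -0.26 to 0.11 for *Casp4*, -0.39 to 0.58 for *Txnip*, -0.40 to 0.76 for *Gm15441*, -0.35 to 0.12 for *Brcc3*, -0.15 to 0.0007 for *Txn2* and -0.037 to 0.20 for *Txn1*. From WT Sham to WT MI, *Fadd* was at -0.0249 under quantile normalization, and with libraries left out *Gbp2* ran from -0.13 to 0.0096 and *Gbp3* from -0.16 to 0.0668. *Fadd* in the KO-labelled libraries against WT Sham ran from -0.11 to 0.0076. Depth limits *Nlrc4* and the sham levels of *Nlrp3*, *Casp1*, *Pycard*, *Casp4* and *Aim2*. On the longest coding transcript, *Casp1* had an estimated 10.7 and 6.83 fragments in the sham libraries and *Pycard* 10.5 and 7.17. *Casp4* had 11.0 and 9.0 there, and *Aim2* 13.6 and 10.2. The 2 libraries a group limit every interval.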

Other observations

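Among the related genes, *Gbp3* and *Il1r2* had large differences between the infarct groups that did not pass the test, and both were chosen after their values were seen. *Gbp3*, an interferon-induced GTPase, was at 5.58 and 6.68 FPKM in the sham libraries, 5.41 and 6.41 in those of WT MI and 11.38 and 24.68 in the KO-labelled ones. Its log2 fold change between the infarct groups was 1.37 (SE 0.31, limma adjusted p = 0.0774), with 1.90 (adjusted p = 0.0425) when KO-labelled replicate 1 was removed and 0.85 (0.113) when replicate 2 was.

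*Il1r2*, the decoy receptor that binds IL-1β without signalling and that neutrophils are known to carry, was at 0.23 and 0 FPKM in the sham libraries, 15.59 and 5.09 in those of WT MI and 1.9 and 1.8 in the KO-labelled ones. Both WT MI libraries were above all others. It was tested only because infarct libraries were high, and it had a log2 fold change of 3.18 from WT Sham to WT MI (limma adjusted p = 0.00102), and its log2 fold change between the infarct groups was -1.82 (SE 0.42, adjusted p = 0.0831), with -2.54 (0.0377) when WT MI replicate 2 was removed and -1.10 (0.289) when replicate 1 was. The summed neutrophil markers of the KO-labelled libraries were at 0.349 of the WT MI sum. *S100a8* and *S100a9*, the most abundant of them in WT MI, were at 0.256 and 0.27 of their WT MI means. *Csf3r* (0.593), *Cxcr2* (0.612), *Retnlg* (0.577) and *Mmp8* (0.64) were less far below, and none of the 6 tested was called, against 1.4% of all genes. The part of the neutrophil markers in the *Il1r2* difference was not tested.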
